A study of Mus musculus with 28 samples.

Results

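The 10 genes described here encode subunits of voltage-gated calcium channels: the pore-forming subunits Cacna1a, Cacna1b, Cacna1c, Cacna1d, Cacna1e, Cacna1g, Cacna1h and Cacna1i and the auxiliary subunits Cacna2d1 and Cacna2d2. They were taken by name, and all 10 were found in the table of exonic counts, which lists 23453 genes, and in the table of intronic counts, which lists 20422. The samples were single cells of mouse cortex, labelled as 8 astrocytes and 12 neurons from primary culture (genotype C57/BL6, each harvested with a pipette) and 8 interneurons from acute slices of prefrontal cortex (genotype C57/BL6/N, harvested with a patch clamp pipette). No treatment is labelled. For the cultured cells the protocol field names a male mouse of 3 months, but it describes a perfused, fixed and sectioned brain, which is not a culture; the study's methods describe its dispersed mouse cultures as embryonic, and which of these the RNA-seq cells came from is not stated for them. No age is given for the slice donors, and the number of mice or cultures behind either kind of cell is not given in the sources used here. The cultured cells and the interneurons also differed in library kit and sequencer, so cell type, preparation and library method cannot be told apart between these 2 kinds of cell.

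A voltage-gated calcium channel opens when the membrane depolarises and lets calcium into the cell. Its pore-forming subunit sets the current type: Cacna1a carries P/Q-type current and Cacna1b N-type current, both known for release of transmitter at nerve terminals. Cacna1c and Cacna1d carry L-type current, which links activity to gene expression, Cacna1e carries R-type current, and Cacna1g, Cacna1h and Cacna1i carry T-type currents, which open near rest and serve burst firing. The alpha2delta subunits, Cacna2d1 to Cacna2d4, are extracellular proteins that raise the number of channels at the membrane, and the first pair of them binds gabapentin. The cytoplasmic beta subunits, Cacnb1 to Cacnb4, help the pore subunit reach the surface.

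The 28 columns of the count tables are headed by codes found in none of the labels. No column could therefore be assigned to a labelled cell, none is given a cell type, and groups were not tested against each other. Values are set out over 3 blocks of columns by code: the 8 columns BRP564 and BRP566 to BRP572, the 12 columns BRP528 to BRP543, and the 8 F columns. The block sizes equal the numbers of labelled astrocytes, neurons and interneurons, but this division was proposed with marker genes in view, so marker levels give it no independent support. Levels are exonic counts per 1000000 exonic counts of the column (CPM), and a gene was called detected in a column at 1 count or more. Exonic totals were 12969692 to 19798892 in the 8 BRP columns, 17483754 to 26770944 in the 12 BRP columns and 838343 to 14831505 in the F columns. A count of 0 allowed a level of up to 0.231 CPM in the first block, 0.172 CPM in the second and 3.58 CPM in the shallowest F column, F16, by counting error alone.

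Marker genes differed between the blocks. The summed level of 6 neuron markers was 299 to 801 CPM in the 8 BRP columns, 4737 to 8469 CPM in the 12 BRP columns and 1608 to 16746 CPM in the F columns. Of 8 astrocyte markers, all had a count in both BRP blocks, with sums of 1522 to 6174 CPM and 191 to 2463 CPM. The block medians of these markers had a median of 208 CPM in the 8 BRP columns and 0.686 CPM in the 12. The highest marker median in the 12 was 804 CPM, so most of their sum came from few markers. In the F columns the sum was 0 to 4352 CPM and Aldh1l1 and S100b were at 0. The sum of 5 inhibitory neuron markers was at most 42.6 CPM in the 8 BRP columns, at most 2831 CPM in the 12 and 564 to 11673 CPM in the F columns. Without the columns F11 and F12 the lowest F sums were 2106 CPM for neuron, 1136 CPM for inhibitory and 1.19 CPM for astrocyte markers, and the oligodendrocyte precursor sum was at most 0.0674 CPM. The sum of 4 excitatory neuron markers reached 144, 1057 and 4.92 CPM in the 3 blocks. Oligodendrocyte markers summed to at most 172, 610 and 177 CPM, oligodendrocyte precursor markers to at most 103, 303 and 2.28 CPM, microglia markers to at most 11.5, 46.5 and 2093 CPM, endothelial markers to at most 0.760, 4.74 and 0 CPM and fibroblast markers to at most 1.33, 15.3 and 10.6 CPM. Their part in the values of the channel genes was not tested. Columns F11 and F12 stood apart as a pair: their intronic log2(CPM + 1) profiles had a Pearson correlation of 0.961 across genes, against 0.735 for the next closest pair of columns, and 9083 genes had intronic counts in both, 90.5% of those of F12 and 78.2% of those of F11. Whether they hold material of the same cell was not tested, and values of the channel genes that depend on them are also given without them.

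The channel genes together were highest, by median, in the 12 columns BRP528 to BRP543. Their summed exonic level there was 257 to 1191 CPM with a median of 609 CPM, against 87.3 to 178 CPM (median 150 CPM) in the 8 BRP columns and 4.78 to 951 CPM (median 81.6 CPM) in the F columns. The 8 BRP columns lay close together and below every one of the 12, whereas the F columns overlapped both other blocks and 3 of the 12 (BRP529, BRP538 and BRP540) lay above every F column. Without F11 and F12, the lowest F columns, the F range was 16.7 to 951 CPM and its median 156 CPM, so the order of the F and 8 BRP medians turned. Between 7 and 8 of the 10 genes were detected in each of the 12 columns, 3 to 6 in each of the 8 and 1 to 8 in each F column. Of all 23453 genes, 9869 to 12564 were detected in each of the 12 and 10985 to 12815 in each of the 8. The F columns had 2338 to 7218 each. Of 280 pairs of a gene and a column, 173 had an exonic count, and without F11 and F12 159 of 260 had one. With each column thinned to 2000000 exonic counts, which F16 did not reach, 148 pairs remained detected. These were 32 pairs over the 8 BRP columns, 85 over the 12 and 31 over 7 F columns. All other genes were not counted after thinning.

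**Figure D1:**
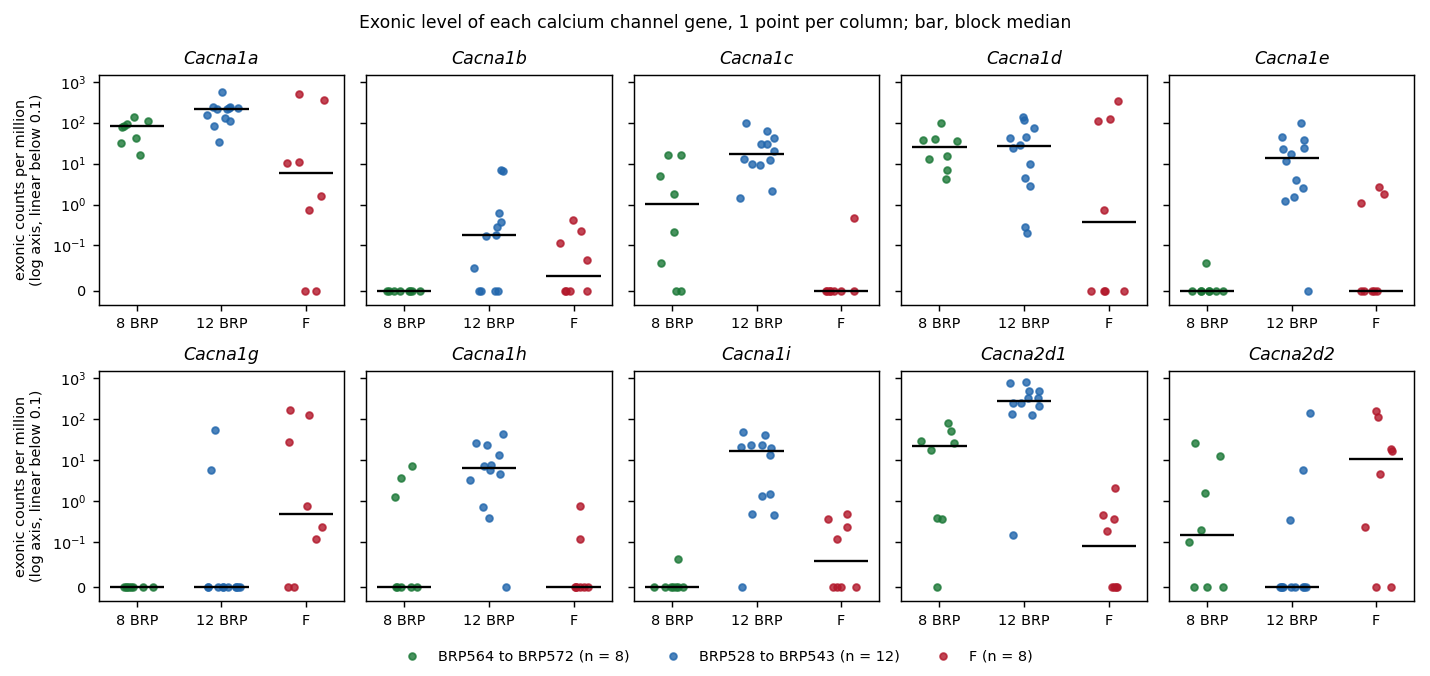
Each panel shows 1 gene, and each point is 1 column of the exonic count table, with the level in CPM on a log axis that is linear below 0.1. Bars mark the median of each block; Cacna2d1 had a median of 284 CPM in the columns BRP528 to BRP543, with BRP528 far below at 0.149 CPM, and Cacna1c was at 0 in every F column but 1.

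Because counts grow with transcript length, levels of different genes were compared per kilobase of annotated exon. Over all 28 columns pooled, Cacna2d1 had 17.0 CPM per kb and Cacna1a had 13.5 CPM per kb. The next was Cacna1d at 3.45 CPM per kb, and Cacna2d2 had 1.57 CPM per kb. Cacna1i, Cacna1c, Cacna1h, Cacna1g and Cacna1e followed between 0.986 and 0.529 CPM per kb, and Cacna1b was lowest at 0.0762 CPM per kb. Single columns varied far more than these neighbours did: each of the 10 genes was at 0 in at least 1 column, so the order of neighbours in the list does not hold column by column. In the F columns pooled, the order was Cacna1a, Cacna1d, Cacna2d2 and Cacna1g, at 11.4, 7.48, 4.78 and 2.80 CPM per kb, and the other 6 genes were each below 0.04 CPM per kb. F7 alone held 66.1%, 59.4% and 49.9% of the F counts of Cacna1a, Cacna1d and Cacna2d2. By median over the F columns the order was Cacna2d2, Cacna1a, Cacna1g and Cacna1d, at 1.33, 0.516, 0.0477 and 0.0293 CPM per kb.

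The start regions of the genes at the ends of this order are shown to place both transcripts in the genome. Each is the 250 bases before the RefSeq start, on GRCm38.p6, written 5′ to 3′ on the strand of the gene, with GGGCGG or its reverse complement in capitals. The Cacna2d1 window is chr5:15934441-15934690 on the plus strand, and the Cacna1b window is chr2:24763153-24763402 on the minus strand.
Cacna2d1: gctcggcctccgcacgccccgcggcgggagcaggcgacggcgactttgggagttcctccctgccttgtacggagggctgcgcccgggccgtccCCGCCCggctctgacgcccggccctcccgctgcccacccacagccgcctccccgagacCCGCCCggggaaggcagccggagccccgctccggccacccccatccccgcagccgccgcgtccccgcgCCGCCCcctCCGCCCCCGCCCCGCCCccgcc
Cacna1b: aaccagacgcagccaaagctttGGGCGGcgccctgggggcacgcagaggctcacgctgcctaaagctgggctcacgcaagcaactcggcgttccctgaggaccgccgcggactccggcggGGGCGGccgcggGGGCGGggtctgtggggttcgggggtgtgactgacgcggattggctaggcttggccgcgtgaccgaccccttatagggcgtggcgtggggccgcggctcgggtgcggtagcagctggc
Both windows were rich in G and C, at 82.4% for Cacna2d1 and 72.0% for Cacna1b, against a median of 52.4% over 32851 windows of the same length. Cacna2d1 held 36 CG pairs and 6 matches to GGGCGG on either strand, some of which overlap each other, and Cacna1b held 29 CG pairs and 3 matches. At least 1 such match was present in 32.7% of all windows. Neither window held TATAAA, which 12.4% of windows did, on either strand. CCAAT, found in 33.8% of windows on either strand, was present once in Cacna1b and was not found in Cacna2d1. The genes with the highest and the lowest exonic level per kb, pooled over all columns, thus both had a start region of this base composition.

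Among pore subunits, Cacna1a on chromosome 8 (84388440 to 84640246, plus strand, GRCm38) was the most widely detected, with counts in 26 of 28 columns. Its level was 16.2 to 134 CPM (median 81.5 CPM) in the 8 BRP columns, 33.1 to 571.9 CPM (median 215 CPM) in the 12 and 0 to 507 CPM (median 5.89 CPM) in the F columns. The BRP blocks overlapped, with 4 of the 12 (BRP528, BRP536, BRP537 and BRP543) lying within the range of the 8. Among the F columns, F2 at 355 CPM and F7 at 507 CPM were as high as the upper columns of the 12, and the other 6 were at 11.2 CPM or below. Without F11 and F12 the F median was 10.7 CPM.

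Cacna1b was close to absent from the exonic table. It was at 0 in all 8 columns BRP564 to BRP572, and in the F columns its highest count was 5. In the 12 columns it was 0 to 7.03 CPM with a median of 0.175 CPM, and BRP536 and BRP542 stood apart with 156 and 137 counts, while the highest of the other 10 had 11. These 2 columns held most of the 335 exonic counts of the gene.

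The L-type genes differed from each other. Cacna1c was detected in all 12 columns BRP528 to BRP543, at 1.46 to 100.3 CPM with a median of 16.7 CPM, with BRP529 highest. In the 8 BRP columns it was 0 to 16.6 CPM with a median of 1.01 CPM, and in the F columns a single count was seen, in F24. Cacna1d, in contrast, had nearly the same median in both BRP blocks, 25.5 CPM (range 4.23 to 95.5 CPM) in the 8 and 26.4 CPM (range 0.199 to 139 CPM) in the 12. Its spread was wider in the 12, where BRP528 and BRP541 had 4 and 5 counts and BRP538 and BRP540 had 2629 and 2437. Among the F columns it was at 122 CPM in F2, 107 CPM in F6 and 330 CPM in F7 and at 2 counts or fewer in the other 5. Its F median was 0.369 CPM and became 53.4 CPM without F11 and F12, as it then fell between the high and the low columns.

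Cacna1e and the T-type gene Cacna1i were seen mainly in the 12 columns BRP528 to BRP543. Cacna1e was detected in 11 of the 12, at up to 96.5 CPM in BRP534 with a median of 14.1 CPM, and was absent from BRP528. In the 8 BRP columns it had 1 count in all, and in the F columns it was detected in 3 with at most 40 counts, or in F1 alone without F11 and F12. Cacna1i was detected in 11 of the 12, at up to 48.1 CPM in BRP542 with a median of 16.2 CPM, and was absent from BRP543. It too had 1 count over the 8 BRP columns, and in 4 F columns, or 2 without F11 and F12, it had 1 count each. Cacna1h was lower, at 0 to 43.0 CPM (median 6.37 CPM) in the 12, at 0 to 6.98 CPM (median 0 CPM) in the 8 and at 2 counts or fewer in every F column.

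Cacna1g had the most uneven distribution of the T-type genes. It was at 0 in all 8 columns BRP564 to BRP572 and in 10 of the 12 columns BRP528 to BRP543. BRP528 had 1106 counts (55.1 CPM) and BRP529 had 129 counts (5.77 CPM). Among the F columns it was at 27.4 CPM in F1, 123 CPM in F2 and 170 CPM in F24, and at 2 counts or fewer in the other 5. The F median was 0.483 CPM and became 13.7 CPM without F11 and F12. The columns with Cacna1g thus fell outside the set in which Cacna1i was high: F1 and F2 had no count of Cacna1i, F24 had 1, and BRP528 and BRP529 had 29 and 30.

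The make-up of the pore subunits was compared per kilobase in the columns with at least 100 pore counts. Cacna1a led in 11 of the 12 columns BRP528 to BRP543, with 48.5% to 96.9% of the summed per-kb level of the 8 pore genes, and Cacna1d led in BRP536 with 27.5%. In the 8 BRP columns Cacna1a led in 7, with 46.5% to 89.1%, and Cacna1d led in BRP568 with 84.2%. Of the 5 F columns with enough counts, Cacna1a led in F2 and F7 (58.7% and 62.9%), Cacna1d led in F6 (89.2%), and Cacna1g led in F1 and F24 (72.9% and 99.6%). The median number of pore genes detected was 7 in the 12 columns, 3 in the 8 and 3 in the 5 F columns. BRP536 had the lowest leading share, where Cacna1d, Cacna1a, Cacna1i and Cacna1c had 27.5%, 21.98%, 18.2% and 15.5%.

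**Figure D2:**
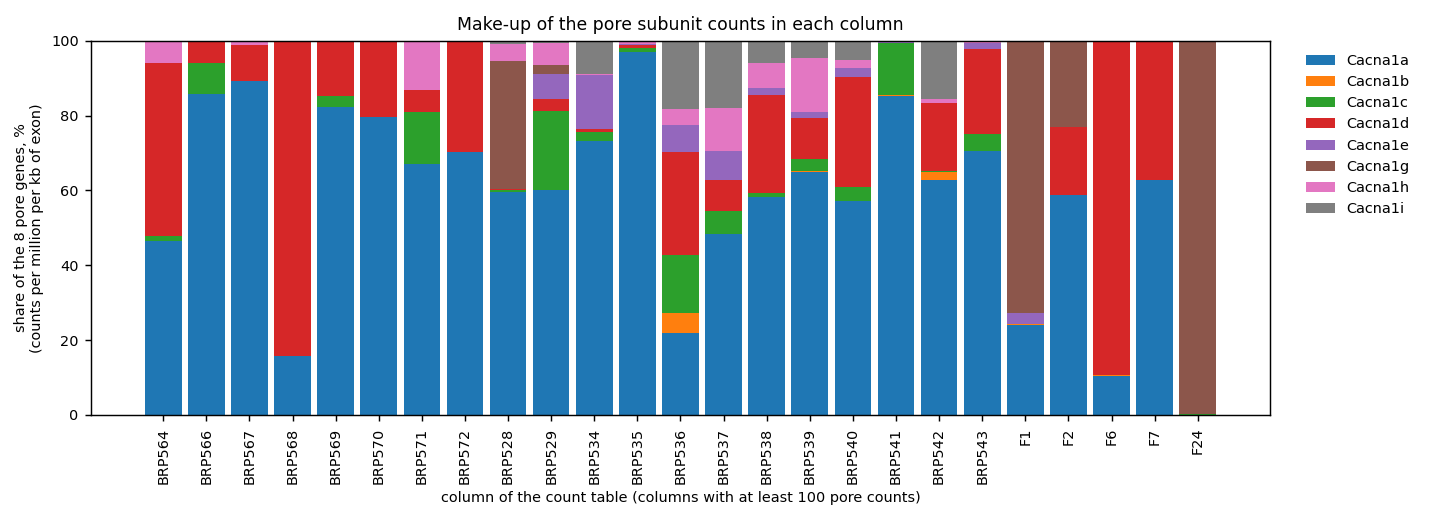
Stacked bars give, for each column with at least 100 pore counts, the share of each pore gene in their summed CPM per kb of exon, in percent. Cacna1a made up most of the bar in most BRP columns, while F1 and F24 were led by Cacna1g (72.9% and 99.6%) and F6 and BRP568 by Cacna1d (89.2% and 84.2%).

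The alpha2delta genes Cacna2d1 and Cacna2d2 had their highest levels in different columns, but some columns held both. BRP543 had 2489 counts of Cacna2d1 and 109 of Cacna2d2, and BRP572 had 474 and 228. Cacna2d1 on chromosome 5 (15934691 to 16374511, plus strand) was 127 to 802 CPM in 11 of the 12 columns BRP528 to BRP543, and 3 counts (0.149 CPM) were found in the other, BRP528. Its median was 284 CPM in the 12. In the 8 BRP columns it was 0 to 80.2 CPM with a median of 21.8 CPM, and BRP568, BRP569 and BRP570 had 7 counts or fewer. In the F columns it was 0 to 2.07 CPM, with at most 18 counts in a column.

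Cacna2d2 on chromosome 9 (107399612 to 107529343, plus strand) had another distribution. BRP528 had 2857 counts (142 CPM), BRP543 had 109 and BRP541 had 6, and the other 9 of the 12 had none. In the 8 BRP columns it was 0 to 25.9 CPM (median 0.146 CPM), highest in BRP569 with 336 counts and BRP572 with 228. In the F columns it was 0 to 156 CPM (median 10.6 CPM, or 17.8 CPM without F11 and F12), and F2 and F7 were the highest with 864 and 971 counts.

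Over the 12 columns Cacna2d1 and Cacna2d2 had a Spearman correlation of -0.67, over the 20 BRP columns -0.54 and over all 28 columns -0.51. Points with no counts of Cacna2d2 are tied, and the columns share amplification and library steps within each kind of code. The other alpha2delta genes were read beside them. Cacna2d3 was detected in all 12 columns at 16.7 to 346 CPM (median 163 CPM), in 4 of the 8 at up to 9.87 CPM, and among the F columns at 762 counts (360 CPM) in F24 and 1 count in F2. Cacna2d4, better known from the retina, had 37 counts in all. Per kilobase, Cacna2d1 led the alpha2delta genes in 8 of the 12 columns with 50.0% to 94.6%, Cacna2d3 led in BRP535, BRP541 and BRP542 with 52.1% to 57.6%, and Cacna2d2 led in BRP528 with 90.3%. Of the 6 columns of BRP564 to BRP572 with at least 100 alpha2delta counts, Cacna2d1 led in 5 and Cacna2d2 in BRP569. Of the 3 such F columns, Cacna2d2 led in F2 and F7 and Cacna2d3 in F24.

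BRP528, the column with Cacna2d2 and Cacna1g in place of Cacna2d1, also differed from the other 11 in marker genes. Gad1, which makes the transmitter GABA, was at 1136 CPM in BRP528 and at most 0.204 CPM in the other 11. Gad2, the other gene for this step, was less distinct, at 780 CPM in BRP528, 340 CPM in BRP541, 128 CPM in BRP543 and at most 64.3 CPM in the other 9. Slc17a6, a vesicular glutamate transporter, was at 0 in BRP528 and between 69.1 and 1012 CPM in the other 11. Aqp4, an astrocyte marker, was at 142 CPM in BRP528, above 10 of the other 11 and below BRP529 at 418 CPM. In the F columns Gad1 was at 0.739 CPM in F12 and 18.9 CPM in F11 and ranged from 1092 to 8713 CPM in the other 6. The 3 columns highest in Cacna1g (F1, F2 and F24) had between 2357 and 5142 CPM of Gad1, while F6 and F16, with 8713 and 4820 CPM, had no count of Cacna1g. Among 10644 genes detected in 14 or more columns, Gad1 had the highest Spearman correlation with Cacna2d2 over the 28 columns, 0.64. Over the 20 BRP columns and the 12 it had 0.65 and 0.54, below the 0.73 and 0.67 of Tmem8. F6, with the most Gad1, had 54 counts of Cacna2d2, and F1 with 5142 CPM of Gad1 had none, so the 2 genes did not run together in every column.

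**Figure D3:**
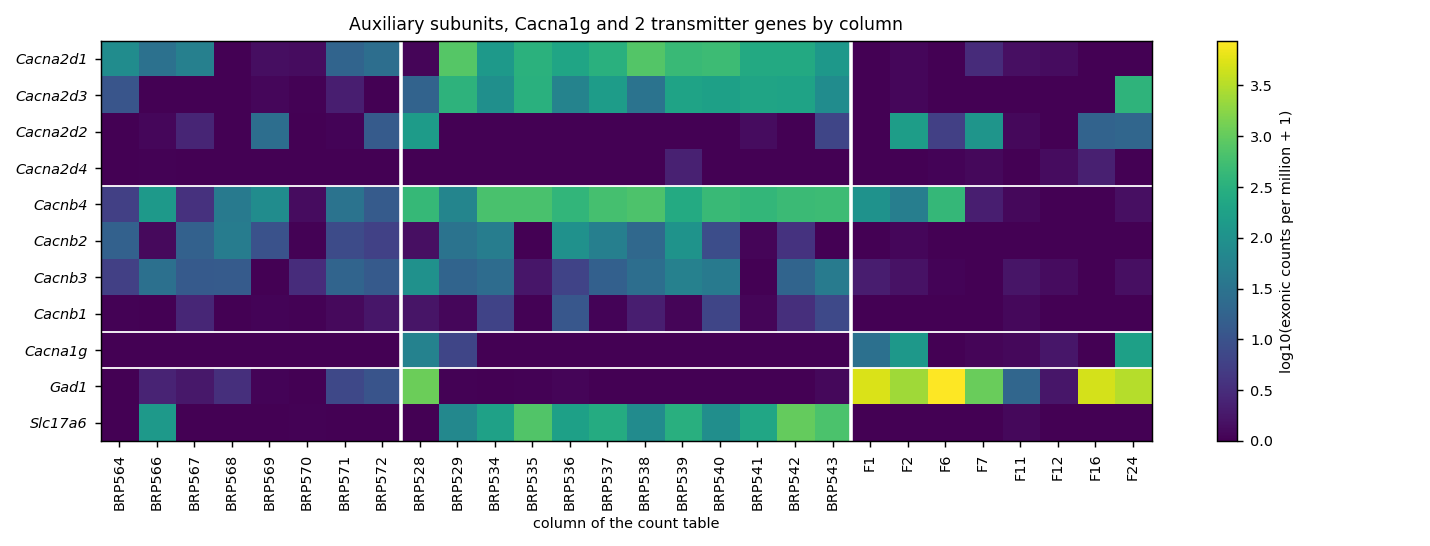
Colour gives log10(CPM + 1) of exonic counts for the alpha2delta and beta genes, Cacna1g, Gad1 and Slc17a6 (rows) in the 28 columns, with white lines between the 3 blocks. BRP528 is dark for Cacna2d1 (0.149 CPM) and Slc17a6 (0 CPM) and bright for Cacna2d2 (142 CPM), Cacna1g (55.1 CPM) and Gad1 (1136 CPM).

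Genes whose columns do not overlap between blocks were counted as a description. Of 18909 genes, every one of the 12 columns BRP528 to BRP543 lay above every one of the 8 columns BRP564 to BRP572 for 413, or 2.18%, and below for 525, or 2.78%, and none of the 10 channel genes was among either. Against the F columns, 1414 of 18760 genes (7.54%) lay wholly above, among them Cacna1c alone of the 10, with 1.46 CPM in the lowest of the 12 columns and 0.473 CPM in the highest F column. No gene, 0%, lay wholly below the F columns. A 0 in F16 allowed up to 3.58 CPM, so at that depth Cacna1c could have lain within the range of the 12. The summed level of the 10 channel genes did separate the 2 BRP blocks although none of the 10 alone did. No share for sums of other genes was computed beside it.

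Of the 16 other subunit genes, Cacnb4 had the most counts, followed by Cacna2d3, Cacng2, Cacng3 and Cacnb2. Cacnb4, the beta subunit whose loss causes the lethargic phenotype in mice, was 61.9 to 693 CPM (median 479 CPM) in the 12 columns, 0.354 to 134 CPM (median 21.8 CPM) in the 8 and 0 to 422 CPM (median 0.812 CPM) in the F columns. Without F11 and F12 the F median of Cacnb4 was 24.7 CPM, above that of the 8. F6 and F1 held the highest F levels of Cacnb4, at 422 and 100.5 CPM. F7, the F column with most exonic Cacna1a, had 1.15 CPM of Cacnb4, from 10 exonic counts beside 6468 intronic counts. Cacng2 and Cacng3, relatives of a muscle channel subunit that are known chiefly as partners of AMPA receptors, had medians of 121 and 99.97 CPM in the 12 columns. They reached 5.61 and 0.0771 CPM in the 8. In the F columns the exonic level of Cacng2 was 172 CPM in F1 and at most 5.96 CPM in the others. F6 and F7 had 1 and 5 exonic counts of Cacng2 beside 21853 and 4630 intronic counts. Cacnb2 was 0 to 103 CPM in the 12 columns and at most 0.181 CPM in the F columns. The genes Cacna2d3, Cacng2 and Cacng3 were the 3 of the 16 for which the 12 columns lay wholly above the 8, beside 2.18% of all genes tested. For Cacng3 this rested on 3 counts in BRP542 (0.146 CPM) against 1 count in BRP569 (0.0771 CPM), within the level that a count of 0 allows. The muscle and retina pore genes had few counts, with 14 for Cacna1s and 2 for Cacna1f over all columns. Across the family list the summed level was 524 to 1414 CPM in the 12 columns, 2.93 to 162 CPM in the 8 and 1.85 to 422 CPM in the F columns, or 2.07 to 422 CPM without F11 and F12.

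Lists of genes that work with the channels were read beside them. The 12 presynaptic partners, led by Snap25, Syt1 and Erc2, summed to 2981 to 6434 CPM in the 12 columns, 26.6 to 267 CPM in the 8 and 881 to 15321 CPM in the F columns. Snap25 and Syt1 are also in the list of neuron markers, so the levels of this list give the blocks no independent support. Calcium-activated potassium channels, led by Kcnma1, Kcnmb4 and Kcnn1, summed to 88.9 to 602 CPM, 0.318 to 80.0 CPM and 0 to 1145 CPM in the same order. Genes of calcium stores and extrusion, led by the pumps Atp2a2 and Atp2b1 and the exchanger Slc8a1, summed to 1567 to 5893 CPM, 349 to 1157 CPM and 200 to 4739 CPM. In each of these 3 lists the 12 columns lay wholly above the 8, and the F columns overlapped the 12. Sums of genes drawn at random were not computed beside them. By comparison, 8 of the 10 channel genes were detected in 14 or more columns, against 54.5% of the 19524 genes with an exonic count.

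Likeness to other genes was ranked by Spearman correlation over the 28 columns for the 8 members detected in at least 14 of them, each against 10644 genes. The highest were Foxk2 for Cacna2d1 at 0.89, Osbp2 for Cacna1e at 0.87, Erdr1 for Cacna1a at 0.85 and Raph1 for Cacna1c at 0.85. Cecr6 for Cacna1i had 0.84, Lin7b for Cacna1h had 0.79, Kcnf1 for Cacna1d had 0.73 and Gad1 for Cacna2d2 had 0.64. Next in rank came Pdp1 and Gdf1 for Cacna2d1, B4galnt4 and Ddn for Cacna1e, Slco3a1 and Ppm1e for Cacna1a, Mpp2 and Zfp871 for Cacna1c, Srrm3 and Fam5b for Cacna1i, Zfp407 and Baiap2 for Cacna1h, Smc6 and Rabl2 for Cacna1d, and Tmem8 and Hnrnph1 for Cacna2d2. Much of this follows the blocks: within the 12 columns Foxk2 had 0.53 with Cacna2d1 and Osbp2 had 0.27 with Cacna1e. Cecr6 and Kcnf1 kept values of 0.88 and 0.86 within the 12.

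The intronic counts gave a different picture of the same genes. Of the 610046 exonic and intronic counts of the 10 genes, 399163 were intronic, a share of 65.4% (95% exact binomial interval 65.3% to 65.6%, counting error only), or 59.4% without F11 and F12. Over the 13110 genes with at least 1000 counts in both tables together, the median share was 10.02%. Cacna1b was the most intronic, with 18136 intronic and 335 exonic counts (98.2%, 98.0% to 98.4%). Cacna1c had 90.9%, Cacna1e 84.3%, Cacna1d 73.1% and Cacna1a 66.3%. Cacna2d1 had 45.6%, Cacna1h 39.3%, Cacna2d2 36.2% and Cacna1i 22.7%. Of all those genes, 9.01% had a share of 90% or more, as Cacna1b and Cacna1c did. Introns are far longer than exons in these genes, and per kilobase Cacna1b was the one member with more intronic than exonic counts, at 121 against 33.7 per kb, whereas Cacna1a had 558 intronic against 5978 exonic counts per kb.

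Cacna1b and Cacna1c thus had counts in columns where their exons had few or none. Cacna1b had intronic counts in 27 of 28 columns, among them all 8 columns BRP564 to BRP572 at 1 to 40 counts each. In the 12 columns it had 8 to 4669 intronic counts, and the highest were BRP542, BRP540, BRP539, BRP537 and BRP536, from 4669 down to 2351. Of these, BRP537 had no exonic count of the gene. Cacna1c had intronic counts in all 28 columns, including 5526 in F2, where its exonic count was 0. Cacna1e had intronic counts in all 28 columns too, and it had at least 100 of them with no exonic count in 6 columns. Over the 280 pairs of a gene and a column, 20 had no exonic and at least 100 intronic counts, 12 had at least 100 exonic and no intronic counts, and 75 had at least 100 of both. Of the 12, 5 were pairs of Cacna1g, which had no intronic count in any column.

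Cacna1a held the largest intronic count of the 10 in a single column. F11 had 53930 and F12 had 33986 intronic counts, 65.6% of the 134108 of the gene, with 9 exonic counts in the pair. With these 2 columns the share of Cacna1a in the F columns was 93.3%, and without them it was 41.5%. Over the remaining 26 columns the share was 40.4% (40.1% to 40.6%), against 54.2% in the 8 BRP columns and 36.4% in the 12. The high intronic level of Cacna1a in the F columns thus came from a pair of columns whose profiles run together. For Cacna1d the F share was 86.5% with the pair and 86.3% without it, and F6, F7 and F1 had 11313, 11213 and 7780 intronic counts, the last with no exonic count.

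**Figure D4:**
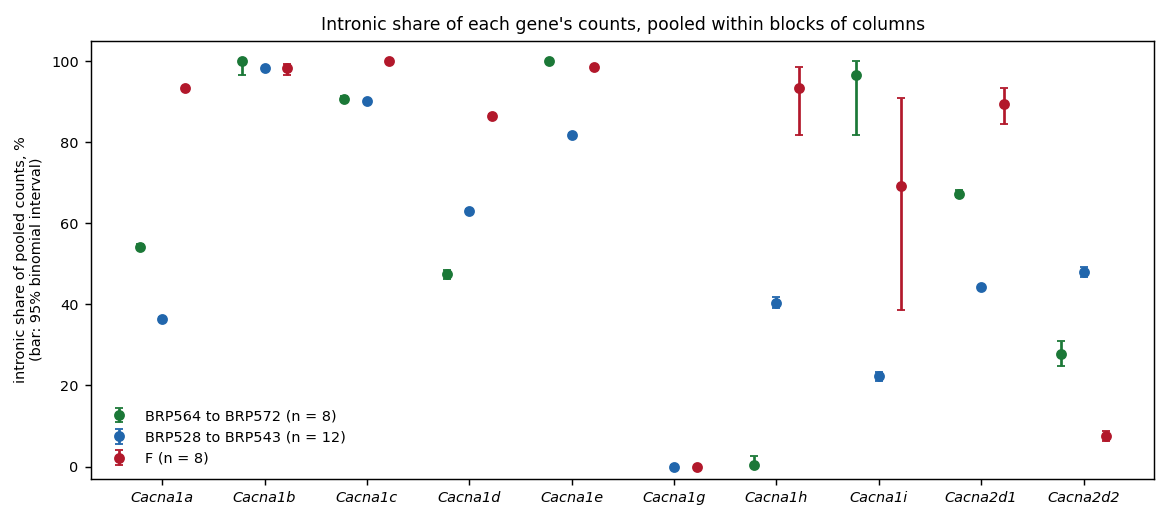
Points give the intronic share of the exonic plus intronic counts of each gene, in percent, pooled within each block of columns, and bars are 95% exact binomial intervals that cover counting error only; blocks with under 10 counts are left out. Cacna1b and Cacna1c lay at 90% or more in every block shown, Cacna1g lay at 0%, and the F value of Cacna1a, 93.3%, was 41.5% without F11 and F12.

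Cacna1g stood at the other end. It had 2687 exonic counts and no intronic count in any of the 28 columns, which allows a share of up to 0.137% by the exact interval, although 55671 of its 65808 bases on chromosome 11 (94408391 to 94474198, minus strand) are intron. Of the 13110 genes, 1147 (8.75%) had no intronic count. A stretch was followed from Cacna1g in both directions on the same strand for as long as the next listed gene with an intron had no intronic count. It ran from 75164565 to 115491862 and held 323 of the 743 such genes on that strand of the chromosome. Of the 323, 178 had at least 1000 exonic counts. Cacnb1, Cacng1, Cacng4 and Cacng5 lie in this stretch and were at 0 as well. The absence of intronic counts of Cacna1g was therefore shared with its neighbours on that strand, and the cause was not tested.

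Intronic counts of Cacna1h came mostly from 1 column. BRP534 had 1804 of its 2163 intronic counts, and 8 exonic counts, and the gene had 151 and 150 in BRP539 and BRP540. Over the columns BRP564 to BRP572 it had 214 exonic and 1 intronic counts. Cacna2d2 in BRP528 had 1683 intronic beside its 2857 exonic counts, so the high level of that column was seen in both tables. Among the F columns, F2 had 864 exonic counts of Cacna2d2 and no intronic count, and F7 had 971 exonic and 104 intronic counts. Cacna2d1 in BRP528 had 88 intronic counts beside its 3 exonic counts, against 46 to 18628 in the other 11 columns.

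Other annotated genes overlap 7 of the 10, and exons overlap for 4. Cacna1d shares exon sequence with Chdh and Cacna1h with Tpsg1, each on the opposite strand, and Cacna1a and Cacna2d2 overlap exons of the antisense genes Gm16183 and Gm17141. Chdh had 1886 exonic counts and Tpsg1 had 61, and the antisense genes are not listed in the table. The strand setting of the counting is not given in the sources used here, so reads of such pairs may not have been told apart.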

How the data were processed

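Single-cell RNA-seq counts of 28 mouse cortex cells were used. The deposited tables hold exonic and intronic counts per gene as whole numbers, not normalized by the authors. The submitters' processing notes name bcl2fastq 2.17, STAR 2.4.0 and mm10; counting tool, annotation, strand setting and filters are not given in the sources used here. Exonic totals were 838343 to 26770944 per column. Reads were amplified and carry no molecular identifiers, so intervals and limits from a count of 0 (3 counts) cover counting error only.

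The members, the 3 blocks of columns and the gene lists were chosen with earlier results of these data known. The genes named are the 10 members, listed subunit and partner genes with most counts (up to 5 of the family list, up to 3 of the others), and the 3 genes most like each member; Gad1, Gad2, Slc17a6 and Aqp4 beside BRP528, single columns, Cacnb1, Cacng1, Cacng4, Cacng5, Cacna1f, Cacna1s, Cacna2d4 and the overlapping genes were named after their values were seen. No column was matched to a sample, so no test was run. The result of 1 gene list is not reported here. Levels are exonic counts per 1000000 exonic counts of a column (CPM). Exon and intron lengths and positions came from GENCODE M21 (GRCm38, the build also called mm10), matched by symbol, and start regions from RefSeq on GRCm38.p6, where 7 of the 10 genes matched. Alternatives were DESeq2 1.42.0 size factors, TMM factors of edgeR 4.0.16, intronic counts added, pooled sums, a minimum of 10 counts, thinning to 2000000 counts (seed 11), and columns left out. The code that counts non-overlapping genes was checked on simulated counts between the BRP blocks, not against the shallower F columns. Software was R 4.3.3, scipy 1.17.1, pandas 2.3.3, numpy 2.4.6 and Python 3.11.15.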

Additional observations from a re-analysis of the deposited data

How the results depend on the processing

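The summed exonic level of the 10 genes, a median of 223 CPM over the 28 columns, was 639 CPM when intronic counts were added and between 152 and 477 CPM under DESeq2 size factors, TMM factors, pooled counts and without F12. With DESeq2 size factors the medians of the 12 columns BRP528 to BRP543 were 2.23 to 2.50 times lower and with TMM factors 1.28 to 1.37 times lower, for the 8 genes with a median above 0. The F medians above 0 rose instead. For Cacna1a the medians of the 12 and the F columns were 215 and 5.89 CPM. They were 85.9 and 13.6 with DESeq2 size factors and 160 and 14.9 with TMM factors, so the gap narrowed. The order of the 3 block medians was the same for 10 of 10 genes. Of 40 alternative medians of single genes in those 12 columns, 37 moved by less than 1 SD over the columns, and the 3 that moved more were Cacna1b, Cacna1c and Cacna1e with intronic counts added. Of the 10 genes, 4 kept their rank without length and 6 kept it when columns with under 10 counts of the gene were left out. The intronic share of 65.4% was 65.2% as a median over columns, 59.4% without F11 and F12 and 57.5% in the BRP columns. Of 24 named pairs of like genes, 1 remained when the BRP columns were ranked alone and 10 with DESeq2 size factors. Detection in 173 pairs became 131 at 10 counts, 148 after thinning and 166 without F12. Cacna1c remained the 1 gene of the 10 with every one of the 12 columns above every F column in both other settings. With DESeq2 size factors 820 of 18760 genes (4.37%) did so, and without the shallowest column of each block 1533 of 18574 (8.25%). Of the other subunit genes, Cacng3 joined in the second setting. The causes of these shifts were not tested. The settings without F11, F12 or the F columns were chosen after seeing the data. No paired analysis was possible because no column was matched to a sample and no test was run. Depth limits the F columns most.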
